A study of Homo sapiens with 8 samples.

Results

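A set of 9 classic target genes of the tumour suppressor p53 were followed across the 4 groups of a transfection experiment in a squamous cell carcinoma line. The members were CDKN1A, MDM2, GDF15, SESN1, SESN2, TP53I3, FAS, ZMAT3 and BTG2, and were taken by name: every gene probe (no control probe) whose gene name on the array was 1 of these 9 was used. They were 9 of 43317 gene names and 14 of 58201 gene probes. All 14 probes were well above background, by the scanner software's own flag, on all 8 arrays, and all 9 genes were among the 21283 genes tested.

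SAS cells, an established line from a human squamous carcinoma of the tongue, were transfected with a negative control (NC) or with a mimic of miR-874-3p, of miR-210-3p or of miR-629-3p, and total RNA was hybridized to whole-transcriptome arrays of 1 colour. Each of the 4 groups had 2 arrays, each made from 100 ng of RNA, and the dose was 25 nM. Per the labels the RNA was taken 48 h after transfection from SAS cells kept in puromycin, whereas the study's methods give a shorter time, another extraction kit and the name SAS/GFP, so all 4 groups share a line whose exact derivation is not settled here. The methods also give different suppliers for the miRNA mimics and for NC, a difference that cannot be told apart from the miRNA in any comparison with NC. Nothing in the labels says that the replicates came from separate cultures, so the p-values measure the spread between these samples, which may be technical.

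p53 is a transcription factor that is stabilised after DNA damage and other stresses and then switches on genes for cell cycle arrest, DNA repair, metabolic adaptation and cell death. MDM2 is both its target and the ubiquitin ligase that removes it, which closes a negative feedback loop. Several of the same genes also answer to other stress pathways, ATF4 of the integrated stress response among them.

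The mature sequences of the transfected miRNAs are shown first because they are the treatments being compared. They are RefSeq sequences placed on GRCh38.p14, written 5′ to 3′, with the seed (bases 2 to 8) in capitals.
hsa-miR-629-3p: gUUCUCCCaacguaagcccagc
hsa-miR-210-3p: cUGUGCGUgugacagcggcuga
hsa-miR-874-3p: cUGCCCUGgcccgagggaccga
The genes lie on the minus strand at chr15:70079387-70079408, chr11:568112-568133 and chr5:137647582-137647603 in that order. The 3 seeds all differ, so no pair of the miRNAs belongs to 1 seed family. The complement of a seed was found in 0 of the 14 member probes for each miRNA, against 0.747% of all gene probes for miR-629-3p, 0.131% for miR-210-3p and 0.387% for miR-874-3p. A probe covers only 60 bases of a transcript, so this says nothing about the remainder of the transcripts.

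The promoters of the members were searched because the genes are grouped by a shared transcription factor. The window held 250 bases before and 50 after the RefSeq start (GRCh38.p14), all 9 members had one, and both strands were read. The p53 half-site, the 10-base decamer that p53 binds in pairs, was found in 2 of 9 members, SESN1 and FAS, and in 6.63% of all 35116 windows. The sites are shown in capitals, in the direction of the gene.
SESN1, minus strand, chr6:109009008-109009057: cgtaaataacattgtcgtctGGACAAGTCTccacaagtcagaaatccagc
FAS, plus strand, chr10:88991289-88991338: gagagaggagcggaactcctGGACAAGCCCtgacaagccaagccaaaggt
A pair of half-sites 0 to 13 bases apart was in 0 of 9 members and in 0.0285% of all windows, and the ATF4 core TGATGNAAN was in 0 of 9 and in 3.61% of all windows. These are matches of letters within a short window, and the sites of a p53 target can lie outside it.

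Signal is given as log2 of the processed signal relative to the 75th percentile of the array, so 0 stands for that percentile. Between 46.5% and 49.8% of gene probes were well above background on the arrays of miR-629-3p and miR-210-3p, and 41.8% to 46.3% on those of miR-874-3p and NC. The dimmest signals counted as detected lay between -3.74 and -3.39 on the former and between -3.21 and -2.82 on the latter. No spot was saturated. Precision is limited by having 2 arrays in a group. All 8 markers of squamous epithelium (KRT5, KRT14, KRT17, KRT6A, SFN, CDH1, DSG3 and DSP) were well above background on all 8 arrays. Of 9 markers of other cell types, DCN and ALB were on 0 arrays, MYH11 on 1, PECAM1 on 2, CD3E on 4, COL1A1 on 6, PTPRC and VWF on 8, and CD68 matched no probe. In bulk RNA, fewer cells of a type and less RNA per cell cannot be told apart. All 8 arrays were on 1 slide and 1 scan, but miR-629-3p and miR-210-3p filled row 1 of the slide and miR-874-3p and NC row 2. The row therefore cannot be told apart from the miRNA when miR-629-3p or miR-210-3p is compared with NC or with miR-874-3p. The within-row comparisons are miR-629-3p against miR-210-3p and miR-874-3p against NC. The share of probes detected was higher, and the dimmest detected signal lower, in row 1 than in row 2.

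**Figure D1:**
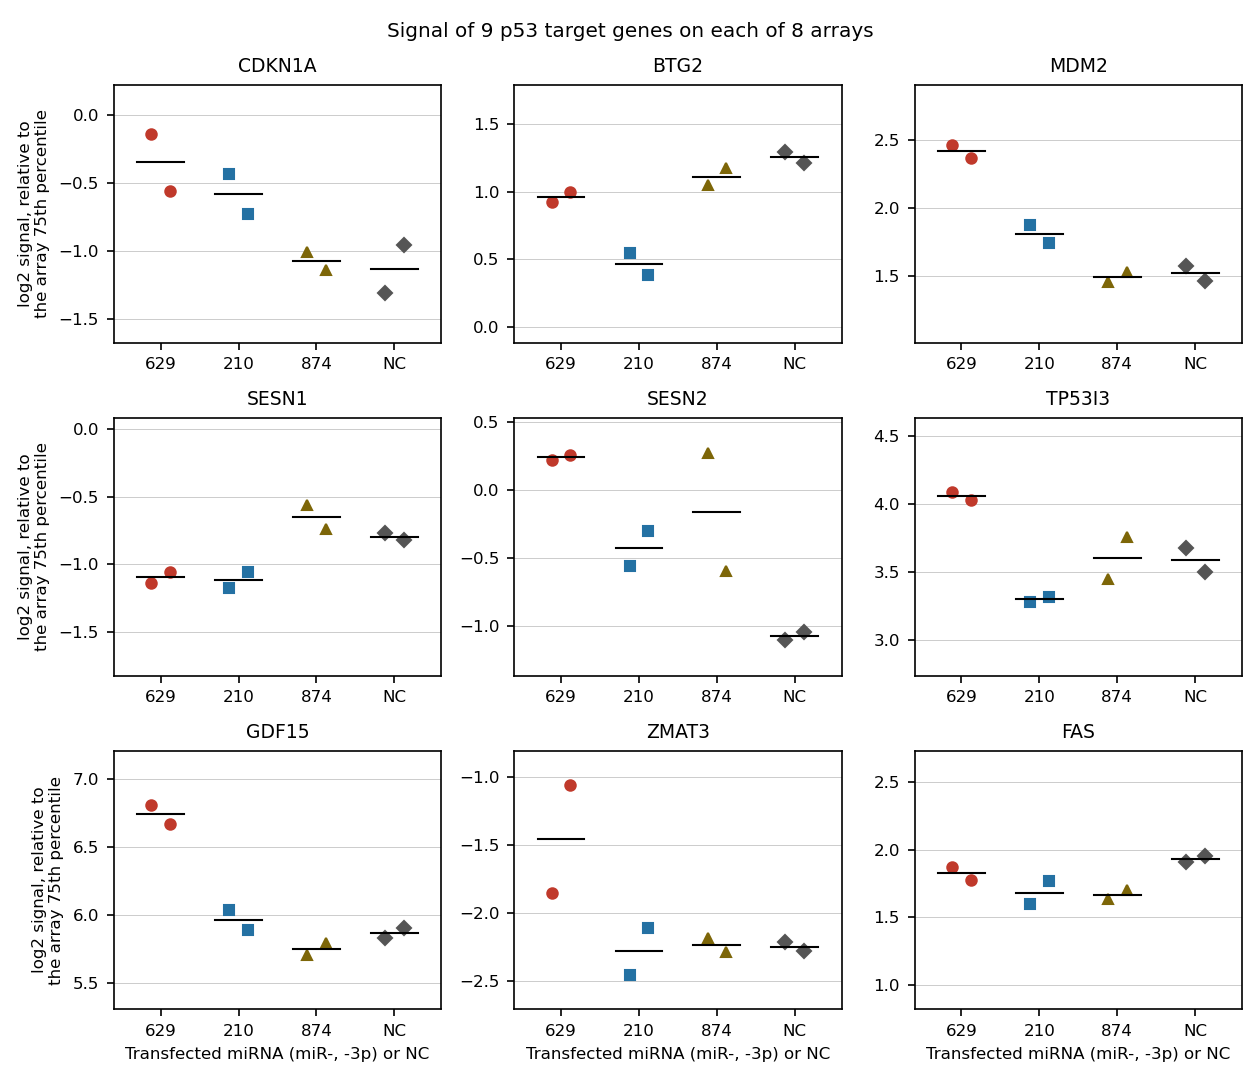
Signal of each of the 9 members on the 8 arrays (y axis, log2 relative to the array's 75th percentile; x axis, the transfected miRNA or NC). Each point is 1 array and each line the mean of 2. The y axes differ in position between panels. MDM2, GDF15, TP53I3 and ZMAT3 were highest on both miR-629-3p arrays, and BTG2 and TP53I3 were lowest on both miR-210-3p arrays.

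MDM2, GDF15 and SESN2 were upregulated in miR-629-3p-transfected cells relative to NC, by 1.86-fold, 1.83-fold and 2.49-fold. No member was called lower. Calls are at a limma p adjusted by the Benjamini-Hochberg method under 0.05 over all 21283 genes, which called 9.28% of all genes higher and 7.47% lower with miR-629-3p. The split over all genes, 1975 higher and 1590 lower, turned to 1747 and 1906 with median centring and to 1885 and 7962 with no filter on detection. The other 6 members were not called, and their differences from NC ran from -0.30 for SESN1 to 0.79 for ZMAT3 and CDKN1A (log2). The median difference of the 9 members was 0.79, against 0.02 over all genes tested, and was 0.33 with normexp background correction and 0.50 without miR-629-3p replicate 2. At an unadjusted p under 0.05 and a change of at least 2-fold, 1 member (SESN2) was called, against 5.26% of all genes in either direction.

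MDM2 read 2.46 and 2.37 after transfection of miR-629-3p and 1.58 and 1.47 in NC cells. The miR-210-3p arrays read 1.88 and 1.74, and the miR-874-3p arrays 1.46 and 1.53. On this probe both miR-629-3p arrays thus lay above all 6 others, the miR-210-3p arrays came next, and those of miR-874-3p overlapped NC. The mean was 2.42 ± 0.06 (SD, n = 2) with miR-629-3p and 1.52 ± 0.08 with NC, a difference of 0.90 (SE 0.09, adjusted p = 0.00574). The array carries 3 MDM2 probes on hg19, of which the brightest, at chr12:69238891-69238950, stands for the gene. The other 2, at chr12:69233822-69233881 and chr12:69233570-69233629, gave 0.94 (SE 0.12, adjusted p = 0.0102) and 0.48 (SE 0.11, adjusted p = 0.0435) in a fit over all 27303 kept probes, so all 3 were called higher but not by the same amount. Whether the probes lie in the same transcript isoforms was not determined here. The call for MDM2 held in 20 of the 21 alternatives that give an adjusted p, and was lost with the methods' t-test (adjusted p = 0.107). MDM2 and GDF15 also fall short of the 2-fold threshold.

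CDKN1A encodes p21, the cyclin-dependent kinase inhibitor through which p53 arrests the cell cycle. Its probe (hg19, chr6:36652178-36652237) read -0.14 and -0.56 with miR-629-3p and -0.43 and -0.73 with miR-210-3p. The NC arrays read -1.31 and -0.96, and the miR-874-3p arrays -1.01 and -1.14. All 4 arrays of miR-629-3p and miR-210-3p lay above all 4 of miR-874-3p and NC, and the arrays of miR-629-3p overlapped those of miR-210-3p, as those of miR-874-3p did those of NC. The difference of miR-629-3p from NC was 0.79 (SE 0.20, 1.72-fold), with an adjusted p of 0.0509 that was just outside the threshold. It was called in 5 of 21 alternatives, among them normexp background correction, where the difference was 0.33 (adjusted p = 0.0300). The 2 groups that read high were those of slide row 1, and the part of the row was not tested. Within row 1, miR-629-3p differed from miR-210-3p by 0.23 (SE 0.20, adjusted p = 0.458).

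BTG2, an antiproliferative protein that p53 induces, was the 1 member called with miR-210-3p. It read 0.55 and 0.38 with miR-210-3p (probe on hg19 at chr1:203278454-203278513), 0.92 and 0.99 with miR-629-3p, 1.05 and 1.17 with miR-874-3p, and 1.29 and 1.21 with NC. No group overlapped another, and the order from NC down to miR-210-3p ran through miR-874-3p and miR-629-3p. BTG2 was lower with miR-210-3p than with NC by 1.73-fold (log2 difference -0.79, SE 0.09, adjusted p = 0.0155), and the differences with miR-629-3p (-0.29, adjusted p = 0.0848) and miR-874-3p (-0.14, adjusted p = 0.493) were not called. The call with miR-210-3p held in 14 of 21 alternatives, with differences from -0.87 to -0.53 over all of them. It was lost with no filter on detection, where 25 of all genes were called higher and 21 lower. The methods' t-test (0 and 1) and the fit of only the groups compared (107 and 69) lost it too. Leaving out either miR-210-3p array or either NC array also lost it.

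SESN1 and SESN2 encode sestrins, stress proteins that restrain mTORC1 and oxidative damage. SESN2 (probe on hg19 at chr1:28608194-28608253) read 0.22 and 0.26 with miR-629-3p and -1.11 and -1.04 with NC. With miR-210-3p it read -0.56 and -0.30, and with miR-874-3p 0.27 and -0.60. Every array of a transfected miRNA lay above both NC arrays, but the miR-874-3p arrays were 0.87 apart, and 1 of them was as high as those of miR-629-3p. The mean was 0.24 ± 0.02 (SD, n = 2) with miR-629-3p against -1.08 ± 0.05 with NC, a difference of 1.32 (SE 0.28, adjusted p = 0.0310). This call was the least firm of the 3: it was lost in 8 of 21 alternatives, among them leaving out either miR-629-3p, miR-210-3p or NC array (adjusted p 0.0615 to 0.133), and normexp background correction reduced the difference to 0.59 (adjusted p = 0.0152).

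SESN1 lay on the other side of NC. It read -1.14 and -1.06 with miR-629-3p and -1.17 and -1.06 with miR-210-3p. The 2 NC arrays read -0.77 and -0.82, and those of miR-874-3p read -0.57 and -0.74 (probe on hg19 at chr6:109308477-109308536). The arrays of miR-629-3p and miR-210-3p overlapped each other and lay below the remaining 4, which were those of slide row 2. Against NC the differences were -0.30 (SE 0.09, adjusted p = 0.0792) and -0.32 (SE 0.09, adjusted p = 0.0994), neither of them called. SESN1 was lower than with miR-874-3p in both, with a difference of -0.44 (adjusted p = 0.0296) for miR-629-3p and of -0.46 (adjusted p = 0.0377) for miR-210-3p. These comparisons also cross the slide rows.

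TP53I3, a quinone oxidoreductase induced by p53 and known as PIG3, read 4.09 and 4.03 with miR-629-3p and 3.28 and 3.32 with miR-210-3p. The NC arrays read 3.67 and 3.50, and the miR-874-3p arrays 3.45 and 3.76. The miR-629-3p arrays were the highest 2 and the miR-210-3p arrays the lowest 2, whereas miR-874-3p spanned NC. Against NC the difference was 0.47 (SE 0.12, adjusted p = 0.0562) for miR-629-3p and -0.29 (SE 0.12, adjusted p = 0.218) for miR-210-3p. TP53I3 has another probe, which in the fit over probes gave 0.50 for miR-629-3p (SE 0.11, adjusted p = 0.0386), while the brightest probe, at chr2:24300504-24300563 on hg19, gave an adjusted p of 0.0604 there. The gene was called in 7 of 21 alternatives, including each fit that left out 1 miR-874-3p array (adjusted p = 0.0244).

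GDF15, a secreted stress cytokine of the TGF-β family, read 6.81 and 6.67 with miR-629-3p and 6.04 and 5.89 with miR-210-3p. Both NC arrays (5.83 and 5.90) were above both miR-874-3p arrays, at 5.70 and 5.79 (probe on hg19 at chr19:18499890-18499949). As for MDM2, both miR-629-3p arrays lay above the other 6, and here the miR-210-3p arrays overlapped NC. The mean was 6.74 ± 0.10 (SD, n = 2) with miR-629-3p and 5.87 ± 0.05 with NC, a difference of 0.88 (SE 0.09, adjusted p = 0.00647). The call held in 19 of 21 alternatives. Among these, the call ended with the methods' t-test (adjusted p = 0.112) and without miR-629-3p replicate 1 (adjusted p = 0.0501).

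FAS, the death receptor, and ZMAT3, an RNA-binding protein that p53 induces, were not called in any of the 6 comparisons between groups. FAS read 1.87 and 1.78 with miR-629-3p and 1.60 and 1.77 with miR-210-3p. The NC arrays read 1.91 and 1.95, and the miR-874-3p arrays 1.64 and 1.70, so both NC arrays were the highest 2. All 3 FAS probes lay below NC with every miRNA, by -0.41 to -0.11, and none was called. ZMAT3 read -1.86 and -1.06 with miR-629-3p, a gap of 0.80 between replicates. Its other 6 arrays lay between -2.45 and -2.11, below both of these, and the difference from NC was 0.79 (SE 0.27, adjusted p = 0.100). With normexp background correction that difference was 0.205.

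**Figure D2:**
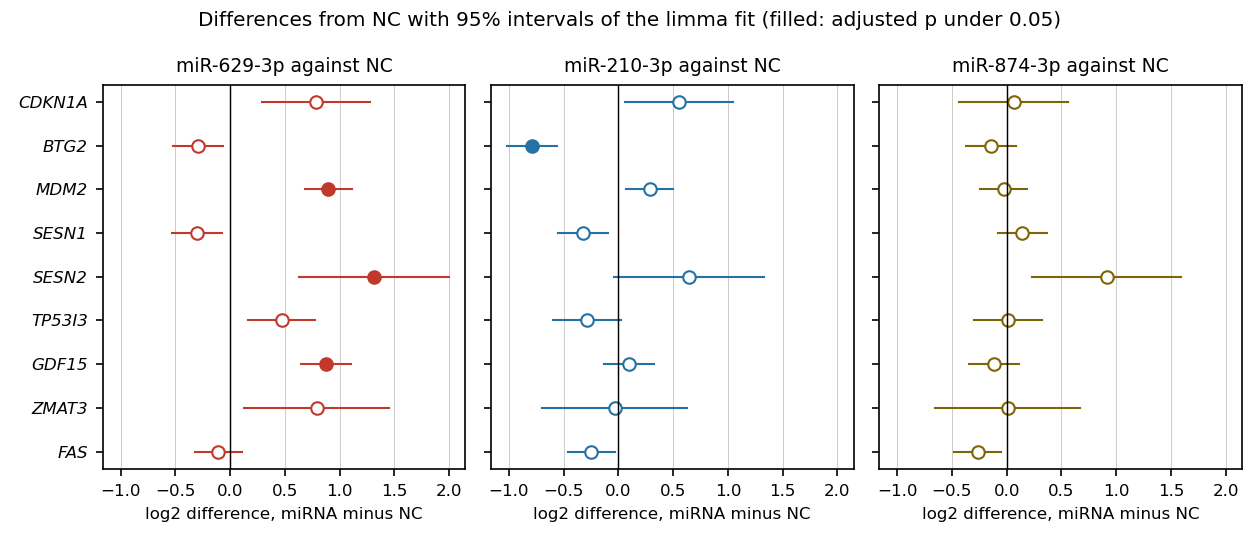
Difference of each member from NC (x axis, log2, miRNA minus NC) with the 95% interval of the limma fit, 1 panel for each miRNA; filled points had an adjusted p under 0.05. Filled points are MDM2, GDF15 and SESN2 for miR-629-3p, BTG2 for miR-210-3p, and none for miR-874-3p. The 3 panels share the 2 NC arrays.

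With miR-210-3p against NC, BTG2 was the 1 member called lower, where 2.2% of all genes were called lower, and limma called 0 of 9 higher, where 3.85% of all genes were. Median centring changed this split over all genes from 819 higher and 469 lower to 666 and 605. At an unadjusted p under 0.05, 2 members were higher (CDKN1A and MDM2) and 3 lower, but the share of all genes at that threshold was not computed. The median of the members was -0.03, against 0.05 over all genes. CDKN1A (0.55, SE 0.20, adjusted p = 0.157), MDM2 (0.29, SE 0.09, adjusted p = 0.111) and SESN2 (0.64, SE 0.28, adjusted p = 0.214) lay above NC on both arrays without being called. SESN2 was called in the fits without 1 miR-874-3p array (adjusted p = 0.0337). At an unadjusted p under 0.05 and at least 2-fold, 0 members were called, against 3.14% of all genes.

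miR-874-3p gave 0 member calls by limma in either direction, where 0.216% of all genes were called higher and 0.207% lower. At an unadjusted p under 0.05 there were 2 members, SESN2 (difference 0.91, SE 0.28, adjusted p = 0.206) and FAS (-0.26, SE 0.09, adjusted p = 0.231). The share of all genes at that threshold was not computed. The methods' t-test called 0 members after adjustment, and 0 of all 21283 genes. At the 2-fold threshold with unadjusted p under 0.05, 0 members were called, against 2.02% of all genes. The other 7 differences lay between -0.14 and 0.14. Their 95% intervals differ in width, from -0.24 to 0.19 for MDM2 and -0.35 to 0.11 for GDF15 to -0.65 to 0.67 for ZMAT3. The difference seen with miR-629-3p lies outside the miR-874-3p interval for MDM2 (brightest probe), GDF15, CDKN1A, TP53I3, ZMAT3 and SESN1. Of these, only MDM2 and GDF15 were called with miR-629-3p. For SESN2, FAS and BTG2 it lies inside. In the fit over probes the other 2 MDM2 probes gave 0.22 (SE 0.12, adjusted p = 0.419) and 0.19 (SE 0.11, adjusted p = 0.469), above the brightest probe. Without miR-874-3p replicate 2, the array that read -0.60, SESN2 was called (difference 1.35, adjusted p = 0.0308).

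The direct comparisons between miRNAs do not use NC for the difference itself. Against miR-210-3p, its neighbour in row 1, miR-629-3p gave 4 members called higher and 0 lower, where 9.83% of all genes were called higher and 12.7% lower: MDM2 by 0.61 (adjusted p = 0.00948), GDF15 by 0.78 (adjusted p = 0.00638), TP53I3 by 0.76 (adjusted p = 0.0135) and BTG2 by 0.49 (adjusted p = 0.0185). The other 2 MDM2 probes were not called here, at 0.41 (adjusted p = 0.0595) and 0.15 (adjusted p = 0.389) in the fit over probes, whereas the other TP53I3 probe was (0.67, adjusted p = 0.0152). All 9 differences in this comparison were above 0, with a median of 0.61 (0.34 with normexp) against -0.02 over all genes. Against miR-874-3p, miR-629-3p gave MDM2 (0.92, adjusted p = 0.00529) and GDF15 (0.99, adjusted p = 0.00523) higher and SESN1 lower, where 9.34% of all genes were called higher and 6.88% lower. Of the other MDM2 probes, 1 was called in this comparison (0.72, adjusted p = 0.0178) and 1 was not (0.29, adjusted p = 0.147). When miR-210-3p was set against miR-874-3p, 0 members were higher and 2 lower, SESN1 and BTG2 (-0.65, adjusted p = 0.0185), where 6.33% were called higher and 3.47% lower. Both comparisons with miR-874-3p cross the slide rows, so the row cannot be told apart from the miRNA in them. Of these 9 calls in all, 5 and 4 were left without miR-629-3p replicates 1 and 2, and 4 and 3 without miR-210-3p replicates 1 and 2.

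Across the 4 groups at once, the moderated F test of limma called 5 of 9 members, where it called 25.2% of all genes. These were MDM2 (adjusted p = 0.00780), GDF15 (adjusted p = 0.00805), BTG2 (adjusted p = 0.0134), TP53I3 (adjusted p = 0.0341) and SESN1 (adjusted p = 0.0345). SESN2 (0.0616), CDKN1A (0.0702), ZMAT3 (0.131) and FAS (0.144) were above the threshold. The count fell to 0 without miR-629-3p replicate 1, to 1 without its replicate 2, to 2 without either miR-210-3p array and to 3 without either NC array.

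**Figure D3:**
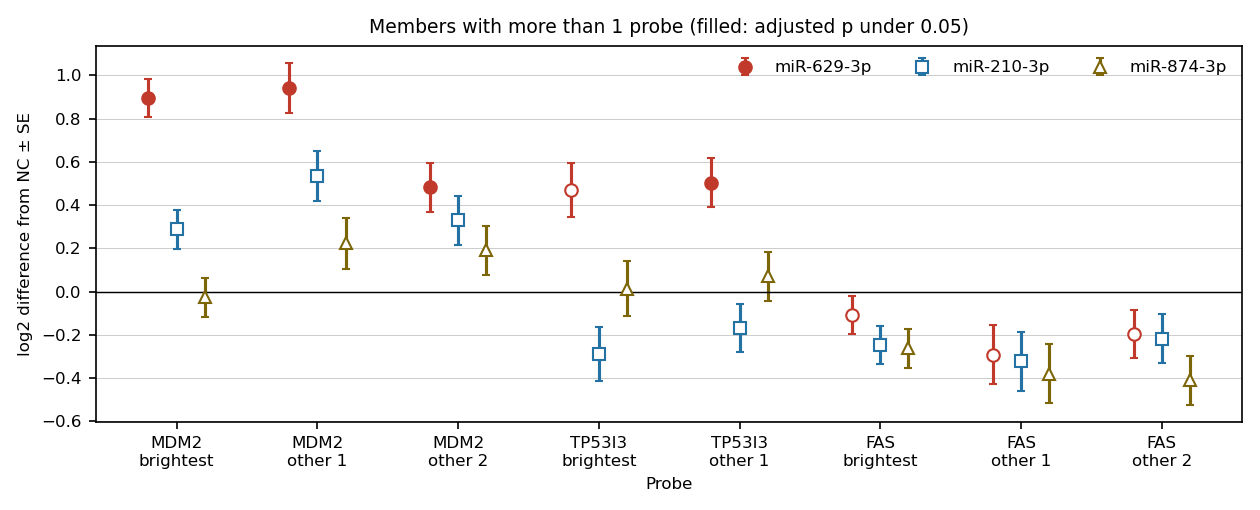
The 3 members with more than 1 probe: log2 difference from NC (y axis) of every probe, with the SE of a limma fit over all kept probes, for each of the 3 miRNAs. Filled symbols had an adjusted p under 0.05. All 3 MDM2 probes and 1 of 2 TP53I3 probes are filled for miR-629-3p, and all FAS values are below 0.

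Next to the targets stand the genes that set p53 activity. Of 14 genes for relatives and regulators of p53, limma called 0 in either direction with miR-629-3p, against 9.28% of all genes higher and 7.47% lower. Their median difference was -0.25, against 0.02 over all genes. At an unadjusted p under 0.05, 6 were lower and 0 higher, a threshold at which the share of all genes was not computed. MDM4, the partner of MDM2, differed by 0.06 to 0.09, and TP63, the p53 relative of squamous epithelium, by -0.44 to 0.07, with no call against NC. TP73, another relative, read -2.03 and -1.92 with miR-629-3p and -2.82 and -2.39 with miR-210-3p. The NC arrays read -1.77 and -1.71, and the miR-874-3p arrays -0.99 and -0.30. It was called in none of the comparisons with NC, and was lower than with miR-874-3p both for miR-629-3p (-1.33, adjusted p = 0.0236) and for miR-210-3p (-1.96, adjusted p = 0.0145). The comparisons with miR-874-3p cross the slide rows. With miR-210-3p, USP7, a deubiquitinase that acts on both p53 and MDM2, was the 1 gene of the 14 called, higher by 0.52 (SE 0.07, adjusted p = 0.0201). Over all genes 3.85% were called higher and 2.2% lower there.

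Other p53 targets were taken from a list of 55 genes, of which 53 were tested (TNFRSF10C and SPATA18 were not). With miR-629-3p, 8 were called higher and 2 lower, against 9.28% and 7.47% of all genes, and the median difference was 0.10, against 0.02 over all genes. The arrest and repair group held 2 of the higher calls among 13 genes, GADD45A (1.30, SE 0.14, adjusted p = 0.00634), which binds PCNA and promotes arrest and repair, and the stress kinase PLK3 (0.78, SE 0.13, adjusted p = 0.0168). Among 15 tested genes of the cell death group, PMAIP1, which encodes the BH3-only protein NOXA, was higher (0.95, SE 0.09, adjusted p = 0.00547), while PERP (-0.74, SE 0.12, adjusted p = 0.0180), a desmosomal membrane protein, and FDXR (-0.72, SE 0.10, adjusted p = 0.0109), a mitochondrial reductase, were lower. The remaining 5 higher calls were among 25 genes of metabolism and other functions, with the receptor kinase EPHA2 (1.08, SE 0.12, adjusted p = 0.00805) and the autophagy protein DRAM1 (0.95, SE 0.18, adjusted p = 0.0228) the largest.

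GADD45A read 4.49 and 4.50 after miR-629-3p transfection and 3.09 and 3.29 in NC cells, and between 3.25 and 3.80 on the other 4. The miR-629-3p arrays were thus above the other 6, as for MDM2 and GDF15. Within row 1 of the slide, GADD45A was higher with miR-629-3p than with miR-210-3p by 0.74 (adjusted p = 0.0175), EPHA2 by 0.83 (adjusted p = 0.0106) and DRAM1 by 1.31 (adjusted p = 0.00831).

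With miR-210-3p, 2 of the 53 other targets were called higher and 3 lower, where 3.85% of all genes were called higher and 2.2% lower. TIGAR, a regulator of glycolysis listed on the array as C12orf5, was higher by 1.02 (SE 0.19, adjusted p = 0.0420), and PMAIP1 by 0.64 (SE 0.09, adjusted p = 0.0219). TRIM22, not well above background on the miR-210-3p arrays, was lower there by at least 2.40-fold (adjusted p = 0.00986). FDXR was lower (-0.59, SE 0.10, adjusted p = 0.0314). SFN, which encodes 14-3-3σ and is a marker of squamous epithelium as well as a p53 target, was lower (-0.96, SE 0.10, adjusted p = 0.0128). In the same comparison KRT5, KRT14 and KRT17 were also called lower (-1.25, -1.11 and -1.01), so 4 of 8 squamous markers, SFN among them, were called lower. The summed linear signal of the 8 markers was 492 to 530 in NC cells, 283 to 286 with miR-210-3p, 402 to 410 with miR-629-3p and, on the miR-874-3p arrays, 435 to 530. That of the 4 tested markers of other cell types was 1.90 to 2.78 with miR-210-3p and 2.58 to 2.67 with miR-629-3p. With miR-874-3p it was 1.37 to 1.55 and with NC 1.46 to 1.62, and DCN and ALB were not well above background on any array. Single genes weigh on these sums. COL1A1 read -1.63 and 0.53 on the 2 miR-210-3p arrays, against -3.52 and -3.37 with NC. With miR-629-3p the brightest of the 4 was VWF, at 0.96 and 1.11. VWF, an endothelial marker, was called higher with miR-629-3p (0.90, SE 0.14, adjusted p = 0.0146). Of the 8 squamous markers, 1 was called higher and 3 lower there, against 9.28% and 7.47% of all genes. The part of these markers in the differences of the p53 targets was not tested.

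Cell cycle genes that p21 represses through the DREAM complex gave 0 calls higher and 3 lower of 21 with miR-629-3p, where 9.28% and 7.47% of all genes were called, with a median of -0.26 against 0.02 over all genes. CCNA2, the cyclin of S phase and G2, was lower (-0.65, SE 0.11, adjusted p = 0.0187), CENPF, a kinetochore protein, was lower too (-0.56, SE 0.07, adjusted p = 0.0111), and CDC25C was the third (-0.26, SE 0.06, adjusted p = 0.0474). With miR-210-3p the same list gave 3 higher and 0 lower, against 3.85% and 2.2% of all genes, among them the phosphatase gene CDC25A (0.56, SE 0.11, adjusted p = 0.0499), with a median of 0.12. Between these 2 miRNAs directly, 10 of the 21 genes were called lower with miR-629-3p and 0 higher, against 12.7% and 9.83% of all genes. The median was -0.22 with miR-874-3p against NC, where 0 of the 21 were called, against 0.216% and 0.207% of all genes. At an unadjusted limma p under 0.05, 9 were lower and 0 higher there, and 12 were lower and 1 higher with miR-629-3p. The share of all genes at that threshold was not computed, so these counts have no background to be read against. Set directly against miR-874-3p, miR-629-3p gave 1 gene higher and 0 lower, against 9.34% and 6.88% of all genes, with a median of -0.05.

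GDF15 and SESN2 are also targets of ATF4, so the genes of that stress response were described beside them. Of 15 listed genes 14 were tested, and with miR-629-3p 5 were called higher and 1 lower, against 9.28% and 7.47% of all genes. The median difference was 0.32, against 0.02 over all genes. The largest were CHAC1, a glutathione-degrading enzyme (2.08, SE 0.21, adjusted p = 0.00629), SLC7A11, the cystine transporter (2.01, SE 0.10, adjusted p = 0.000980), DDIT3, which encodes the transcription factor CHOP (1.48, SE 0.07, adjusted p = 0.000881), and ATF3 (1.09, SE 0.10, adjusted p = 0.00564). DDIT4, an mTORC1 inhibitor, was lower (-1.37, SE 0.18, adjusted p = 0.0104). SLC7A11 read 5.14 and 5.21 after miR-629-3p transfection and 2.78 and 2.81 with miR-210-3p. It stood at 3.15 and 3.18 in NC cells and at 3.25 and 3.48 on the miR-874-3p arrays. The miR-629-3p arrays were the highest 2 for this gene and the miR-210-3p arrays the lowest 2, and within row 1 the difference was 2.38 (adjusted p = 0.000660). With miR-210-3p, CHAC1 (1.07, SE 0.21, adjusted p = 0.0485) and DDIT3 were called higher and DDIT4 lower (-1.06, SE 0.18, adjusted p = 0.0331), against 3.85% and 2.2% of all genes. No gene of any of these lists was called with miR-874-3p, where limma called 46 of all 21283 genes higher and 44 lower.

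**Figure D4:**
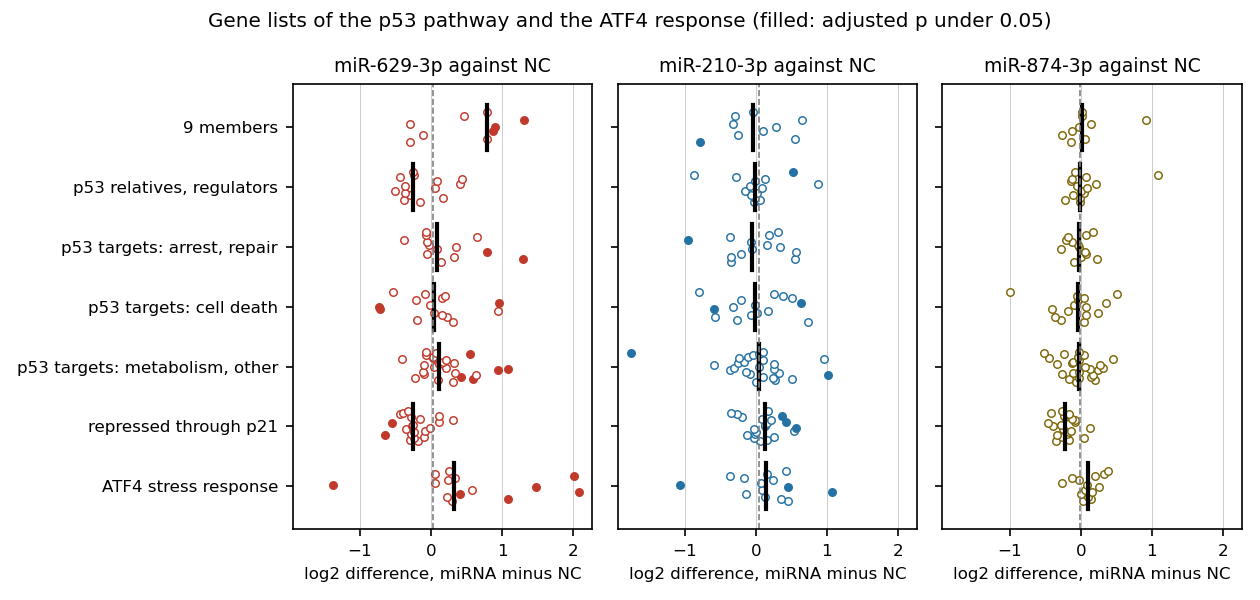
Differences from NC (x axis, log2) of the 9 members and of the listed genes of the p53 pathway, of the cell cycle genes repressed through p21 and of the ATF4 stress response, 1 panel for each miRNA. Each point is 1 tested gene, filled at an adjusted p under 0.05, black bars are list medians, and the dashed line is the median of all genes. The members' medians were 0.79, -0.03 and 0.01 from the left panel to the right.

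By the root mean square difference of mean-centred signal over the 8 arrays, the genes most like MDM2, the member with the largest F, were NR2F1-AS1 (0.0599), HS3ST1 (0.0603) and SMIM3 (0.0680), where the signal of MDM2 itself had an SD of 0.40 over the arrays. Those most like CDKN1A were a cDNA that the array lists by accession alone (0.122), ZNF70 (0.122) and HIST1H4J (0.127), against an SD of 0.39. No other member was among them.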

How the data were processed

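Per the labels, the authors scanned 1-colour arrays and extracted them with Agilent Feature Extraction 11.5.1.1. The deposited intensity is the processed signal, background-subtracted by that software and not normalized between arrays. The deposited table of log2 values lay within 0.05 of the log2 values used here after 1 offset per array, so its scale was inferred.

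Control spots and outlier spots were left out, spots of a probe were averaged, and log2 signal was centred on the 75th percentile of each array. Outlier spots were 87 to 162 of 60901 on the arrays of slide row 1 and 297 to 346 on those of row 2. A probe was used if all 8 arrays had a value for it and some group had it well above background on both of its arrays, and the brightest probe by mean stood for a gene name. All 8 arrays entered 1 linear model per gene in limma 3.58.1 (lmFit, eBayes; R 4.3.3, with 4 residual and 1.68 prior degrees of freedom), with Benjamini-Hochberg adjustment over 21283 genes. The code was tested on simulated data. Bounds ("at least") use the dimmest signal well above background on each array.

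Probe coordinates are the array's own, on hg19. Sequences are from RefSeq, GRCh38.p14. Whether a probe lies in an exon or a UTR was not determined, since no annotation of hg19 was used here. Probe brightness was not compared between genes.

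The members and gene lists were chosen with earlier results of these data known. Named genes were all members, up to 5 listed genes a direction in each comparison with NC (largest change among those called, with both arrays beyond both NC arrays), TP63, TP73 and MDM4, and the 3 genes nearest to CDKN1A and to the member with the largest F. PLK3, PMAIP1 (with miR-629-3p), EPHA2, DRAM1, CDC25C, DDIT3 (with miR-210-3p) and the keratins were named after their values were seen. Some listed genes are not reported here and were left out of the list counts. Alternatives were normexp background correction (offset 50), quantile normalization, median centring, the deposited log2 values, other filters and floors, the mean of probes, eBayes with trend, a replicate block, the study's t-test and ANOVA, its threshold, fits of the compared groups alone, and leaving out each array. A count without one array of a group assumes that the lone array varies like those of the other groups.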

Additional observations from a re-analysis of the deposited data

How the results depend on the processing

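The members called with miR-629-3p (3) became 5, with CDKN1A and TP53I3 added, under normexp background correction, with the deposited log2 values, with probes well above background on all 8 arrays and with eBayes with trend. They became 0 by the methods' t-test and 1 (SESN2) by the 2-fold threshold, and leaving out 1 array gave 1 to 4. For miR-210-3p (1), the count was 0 with no filter on detection, by the t-test, with only the groups compared and by the 2-fold threshold, 2 with the mean of probes (MDM2 added), and 0 to 2 without 1 array. For miR-874-3p (0) it was 0 in all other alternatives and 0 to 1 without 1 array. The F test (5) gave 3 with no filter, with the replicate block and by ANOVA, 6 with normexp and with trend, 7 with probes well above background on all 8 arrays, and 0 to 6 without 1 array. The 9 direct calls became 5 with no filter and with only the groups compared, 1 by the t-test, 0 by the 2-fold threshold, 11 with trend, 12 with probes well above background on all 8 arrays, and 3 to 10 without 1 array. With the replicate block, 2 members (MDM2 and GDF15) were called for miR-629-3p, BTG2 alone for miR-210-3p, 0 for miR-874-3p and 6 directly. Deviations of same-numbered arrays correlated at -0.11 to 0.03, so no strong pattern shared by number was seen. With 2 arrays in a group this cannot show whether same-numbered samples shared a culture. Quantile normalization, median centring and outlier spots kept left the counts against NC as they were. Over all genes with miR-874-3p, normexp changed 46 higher and 44 lower to 135 and 197. For miR-629-3p the t-test called 0 of all 21283 genes in either direction. Its count of 0 members therefore says nothing about the members in particular. Trend raised the calls over all genes there from 1975 higher and 1590 lower to 2472 and 2373. For miR-210-3p the main fit called 819 genes higher and 469 lower. The t-test called 0 and 1 there, and the fit with no filter 25 and 21.

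No called difference of a member from NC changed direction. Differences near 0 did, and the cause was not tested. With miR-210-3p, ZMAT3 was 0.0102 with normexp and 0.0021 with the deposited values, and ran from -0.21 to 0.14 without 1 array (0.14 without miR-210-3p replicate 1). With miR-874-3p, MDM2 was 0.13 with the mean of probes, and ZMAT3 was -0.0237 with normexp and -0.0831 with quantile normalization. Leaving out 1 array gave, for miR-874-3p, -0.12 to 0.24 for CDKN1A (-0.0030 without miR-874-3p replicate 1), -0.0814 to 0.0285 for MDM2 (0.0095 without miR-874-3p replicate 1), -0.14 to 0.17 for TP53I3 (-0.0724 without NC replicate 2) and -0.0380 to 0.0608 for ZMAT3 (-0.0200 without NC replicate 2). Signal over background limits dim genes such as TRIM22. All member probes were well above background on all 8 arrays, but members also depended on the background correction. With normexp the difference of miR-629-3p from NC went from 1.32 to 0.59 for SESN2 and from 0.79 to 0.33 for CDKN1A. It went from 0.79 to 0.205 for ZMAT3 and from -0.30 to -0.0998 for SESN1. MDM2, GDF15, TP53I3, FAS and BTG2 gave 0.70, 0.85, 0.51, -0.12 and -0.20 with normexp.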
